A study of Canis lupus familiaris with 34 samples.

Results

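Interstitial collagens, the enzymes that process and crosslink them, and the glycoproteins and proteoglycans of the surrounding matrix were followed across canine vascular, bone and lymphoid tumors. The list held 45 genes. A gene was read through probe sets annotated with its symbol and no other, and where several remained, the probe set with the highest mean over the 34 arrays was kept. By this rule 39 of the 45 genes were measured, out of 15115 genes with such a probe set. COL6A2, COL8A1, COL11A1, COL18A1, LOXL1 and PLOD2 had none and were not analysed here. The 39 genes fell into 7 fibrillar collagens, 8 other collagens, 6 crosslinking and collagen-processing proteins, 6 elastic fiber proteins, 6 adhesive and matricellular glycoproteins and 6 proteoglycans.

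RNA from spontaneous tumors of pet dogs was hybridized to Affymetrix Canine_2 arrays, 1 array per dog or line. Hemangiosarcoma, a malignant tumor of blood vessel-forming cells, was represented by 10 cell lines. Golden retrievers gave 6 of them (Tucker, Frog, Journey, ChadG4, ChadG6 and ChadG8), and the others were Joey from a Rottweiler, DD1 from a golden retriever x Great Pyrenees cross, ChadP9 from a Portuguese Water Dog and Dal4 from a Dalmatian. The non-malignant comparison was 3 cultures from splenic hematomas, Pippin from a golden retriever, Baxter from a Standard Poodle and Kylie from a Keeshond. Both kinds of culture were grown under conditions chosen to favor endothelial cells, at the earliest passages that were at hand. Osteosarcoma, a tumor of bone, was represented by 5 golden retriever lines (OSCA20, OSCA23, OSCA59, OSCA75 and OSCA71). The 16 lymphoid samples were primary cells that had not been cultured: 1 acute lymphoblastic leukemia, 2 chronic lymphocytic leukemias, 6 diffuse large B cell lymphomas, 1 marginal zone B cell lymphoma and 6 T-zone lymphomas. The labels name no treatment and give no ages. Of the 16 dogs with lymphoid tumors 15 were golden retrievers and Rascal, the acute leukemia, was a golden retriever mix. Breed and tumor type were partly confounded, since all osteosarcoma lines came from golden retrievers, and so did 12 of the 18 cultures.

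Values are log2 intensities, so a difference of 1 is a 2-fold difference in signal. They compare arrays for a given probe set and do not rank genes by abundance. The median of each array lay between 5.57 and 5.77, and the whole table ran from 2.03 to 14.98. A probe set that sat under the array median was near the lower part of this scale. Fibroblast and mural cell markers were above the array median on all arrays for 7 of 14 genes in hemangiosarcoma and 9 of 14 in hematoma and in osteosarcoma, with list means of 7.01 to 8.73 in hemangiosarcoma, 8.24 to 9.28 in hematoma and 7.57 to 9.13 in osteosarcoma. The epithelial keratins KRT8 and KRT18 averaged 8.96 and 9.06 in hemangiosarcoma and 9.96 and 10.91 in hematoma. EPCAM and CDH1, the other epithelial markers on the array, averaged 4.60 and 4.16 in hemangiosarcoma and 3.76 and 4.02 in hematoma. The endothelial list had means of 4.99 to 5.41 in hemangiosarcoma and 4.97 to 5.24 in hematoma. In hemangiosarcoma 1 of 11 endothelial markers, EGFL7, exceeded the array median on all arrays. KDR (mean 6.32) and ERG (6.02) exceeded it in 8 of the 10 lines, CLDN5 (5.66) in 5, TIE1 (5.50) in 3 and VWF (4.96) in 1. PECAM1, CDH5, EMCN, ESAM and TEK did so in 0 lines, at means of 3.67 to 4.98. The osteoblast list was likewise low in osteosarcoma, at 4.99 to 5.29, with 1 of 9 genes above the median on all arrays. The groups are therefore called by their tumor labels, and their cell type was not established from these markers.

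Type I, III and V collagens assemble into banded fibrils that give connective tissue its tensile strength, while type VI, XII, XIV and XVI collagens decorate or link these fibrils. Procollagen needs the chaperone SERPINH1 and lysyl hydroxylases such as PLOD1 inside the cell, and lysyl oxidases (LOX and its relatives LOXL2, LOXL3 and LOXL4) crosslink the fibrils outside it. Fibrillins and fibulins scaffold elastin, fibronectin and the thrombospondins connect cells to the matrix, and small leucine-rich proteoglycans such as decorin and lumican coat the fibrils and limit their width. Fibroblasts, pericytes and osteoblasts are the usual producers of interstitial collagen, and lymphocytes make little of it.

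**Figure D1:**
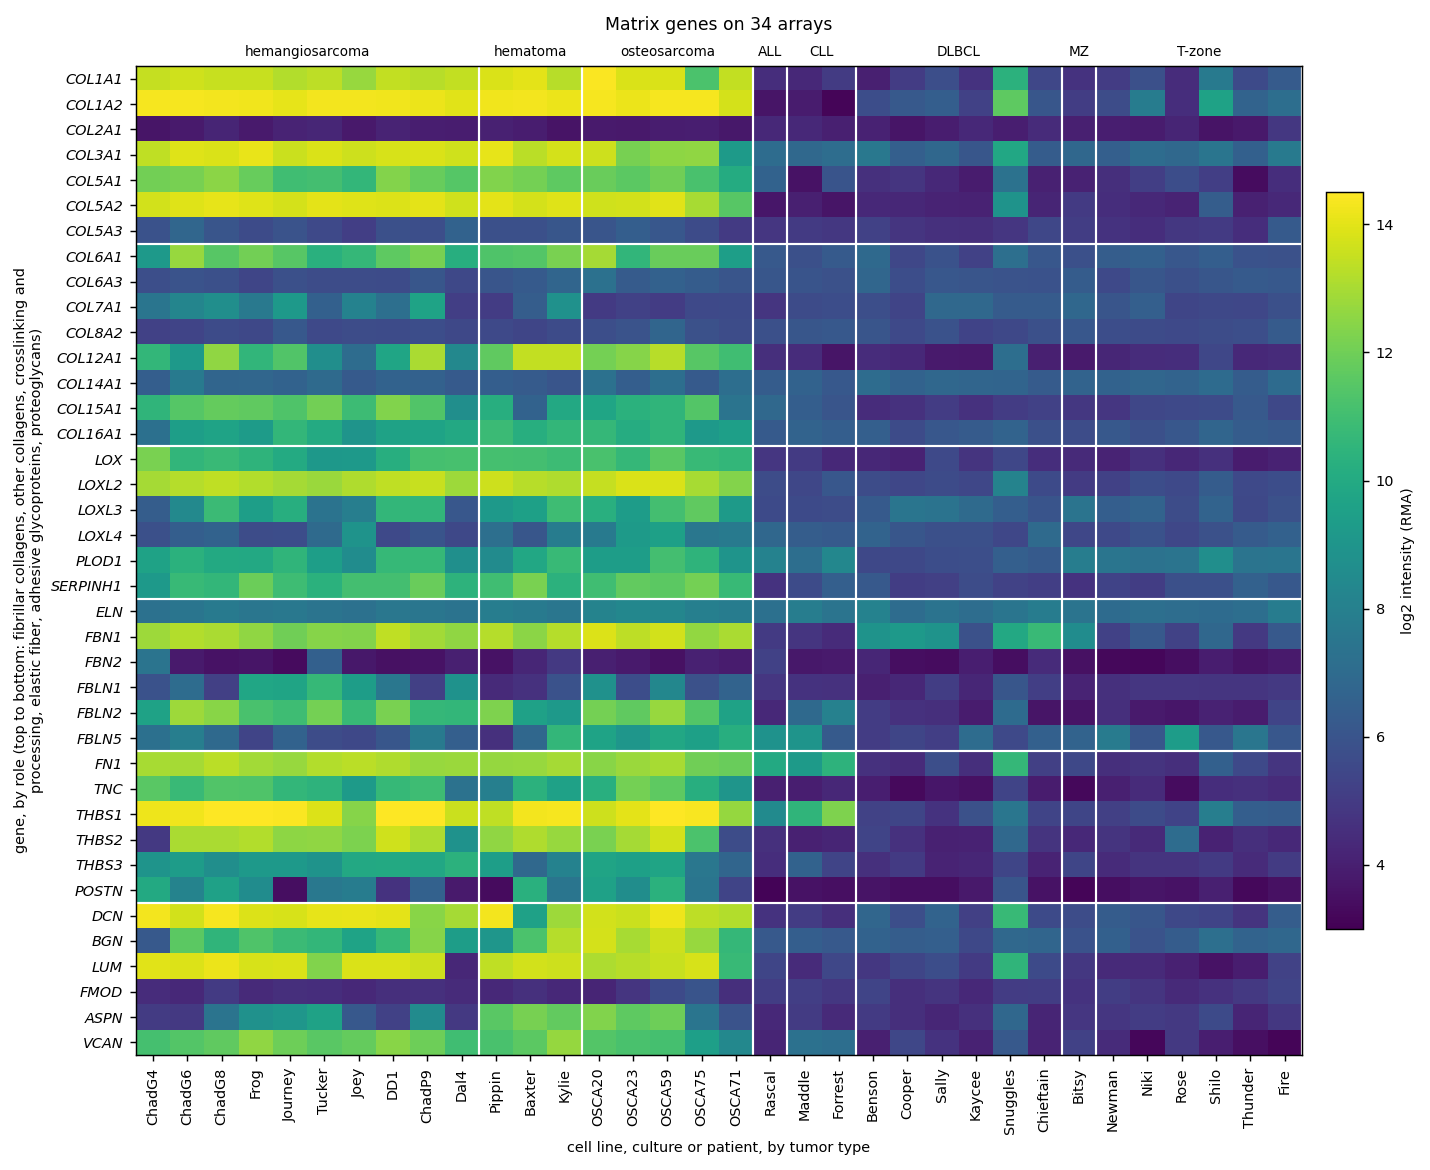
Log2 intensity of the 39 matrix genes (rows, ordered by role) on the 34 arrays (columns, grouped by tumor label), with the color giving the deposited log2 value. COL1A2 stayed between 13.76 and 14.36 on the 18 cultured arrays and between 3.14 and 11.65 on the 16 lymphoid arrays, where the highest value belonged to the lymphoma Snuggles.

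The largest contrast in the matrix genes lay between the 18 cultures and the 16 lymphoid samples. Type V collagen chain COL5A2 averaged 13.70 ± 0.60 (SD, n = 18) in the cultures and 4.63 ± 1.30 (n = 16) in the lymphoid samples, a difference of 9.07 ± 0.33 (SE) with an adjusted p of 3.68e-23 in limma. The type I chains COL1A1 and COL1A2 were higher by 7.87 and 8.07. Lysyl oxidase-like 2 gave the smallest adjusted p of the list, with 12.35 to 13.87 in cultures, 5.0 to 8.14 in lymphoid samples and a difference of 7.46 (limma adjusted p = 7.94e-28). In such bulk RNA a lower share of matrix-producing cells and a lower amount of message per cell cannot be told apart. Culture and lineage changed together in this comparison and cannot be told apart either.

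Of 32 matrix genes that passed the filter on low values, 25 (78.1%) were higher in cultures at an adjusted p under 0.001 and 0 were lower. Over all 22063 probe sets tested, 43.4% passed in either direction, 22% of all probe sets being higher and 21.4% lower in cultures. All 5 tested fibrillar collagens, 4 of 8 other collagens, 5 of 6 crosslinking proteins, 2 of 4 elastic fiber proteins, all 5 tested adhesive glycoproteins and all 4 tested proteoglycans were among the 25. The cultures and the lymphoid samples did not overlap at all for 16 matrix genes, against 7.39% of all tested probe sets. The median difference over the 39 genes was 5.07, against -0.06 over all tested probe sets.

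Not every member was higher in culture. COL2A1, the cartilage collagen, did not exceed 4.85 on any of the 34 arrays. FMOD (fibromodulin), a collagen-binding proteoglycan, reached 5.35 at most in the lymphoid samples and averaged 4.63 in the cultures. The selected probe sets of COL6A3, COL8A2 and COL14A1 differed by 0.01, -0.11 and 0.01 between cultures and lymphoid samples, with limma adjusted p-values of 0.969, 0.402 and 0.948. The probe sets of COL6A3 disagreed here, since another averaged 7.29 in the cultures, with a highest value of 11.82, and 4.22 in the lymphoid samples, where it did not exceed 4.92. That probe set failed the filter and was not tested. Those of COL14A1 disagreed in single lines. Another read 6.94 in ChadG6, 7.25 in OSCA20 and 6.78 in OSCA71, 4.02 to 5.68 in the other cultures and at most 4.87 in the lymphoid samples. COL7A1, LOXL4, ELN and FBLN5 did not reach the threshold of 0.001, at adjusted p-values of 0.0391, 0.0158, 0.0262 and 0.212. COL2A1, COL5A3, FBN2, FBLN1, POSTN, FMOD and ASPN failed the filter on low values and were not tested. ASPN, 1 of these, ranged from 4.90 to 12.31 in the cultures and from 4.20 to 6.85 in the lymphoid samples.

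The closest comparison for the vascular tumor was splenic hematoma. None of the matrix genes was called here. In limma 0 of 36 tested genes had an adjusted p under 0.1. Over all 23292 probe sets 62 (0.266%) passed, with 0.133% in each direction. The unadjusted p was under 0.05 for 8 of the 36, against 9.7% of all tested probe sets. Of the 39 genes 17 had a higher and 22 a lower mean in hemangiosarcoma, with a median difference of -0.01. The median absolute difference of the tested matrix genes was 0.49, against 0.20 over all tested probe sets.

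Asporin (ASPN), a small leucine-rich proteoglycan that binds collagen, showed the largest gap. The hematoma cultures read 11.55 (Pippin), 12.16 (Baxter) and 11.74 (Kylie). The 10 hemangiosarcoma lines ran from 4.90 (Dal4) through a median of 6.78 to 9.62 (Tucker). Every hematoma culture was thus above every hemangiosarcoma line, and ASPN was the sole matrix gene without overlap, against 1.55% of all tested probe sets. The means of 6.97 ± 1.92 (SD, n = 10) and 11.82 ± 0.31 (n = 3) differed by -4.85 ± 1.04 (SE), a 28.8-fold lower signal, with a limma adjusted p of 0.125. With all 34 arrays in the fit the adjusted p became 0.0254, and without Tucker it became 0.0732. In the other alternatives it did not pass, at 0.252 with the 18 cultures in 1 fit and at most 0.474, without Baxter. The difference lay between -5.14 and -4.34 in all 25 alternatives.

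The other 7 genes with an unadjusted p under 0.05 did not separate the groups. Fibulin 1 (FBLN1), which joins fibronectin and elastic fibers, averaged 7.94 ± 2.05 in hemangiosarcoma and 4.97 ± 0.80 in hematoma (limma adjusted p = 0.431). Its hemangiosarcoma values fell into a broad range, from 5.17 in ChadG8 and ChadP9 to 10.70 in Tucker, and the hematoma cultures read 4.39, 4.64 and 5.88. COL15A1, a collagen of basement membrane zones, averaged 11.22 ± 1.03 against 8.92 ± 1.99, a difference of 2.30 (limma adjusted p = 0.371). That difference shrank to 1.15 without Baxter, whose value of 6.63 was the lowest of the 18 cultures. COL12A1, which links fibrils to other matrix, went the other way, by -2.74 (limma adjusted p = 0.44). Type VI chain COL6A3 and the fibril-associated COL16A1 differed by -0.63 and -1.10, with adjusted p-values of 0.258 and 0.503 in limma. For COL6A3 the mean of its probe sets differed by -1.97 (adjusted p = 0.28), and its other probe sets by -3.36 (0.36) and -1.92 (0.292).

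Decorin (DCN) and thrombospondin 3 (THBS3) had mean differences that changed when single hematoma cultures were left out. Decorin read 14.32 in Pippin, 9.56 in Baxter and 12.80 in Kylie, whereas hemangiosarcoma ran from 12.46 to 14.36 around a median of 13.97. Only Baxter lay well under the tumor lines, and the difference of 1.54 fell to 0.21 without it and grew to 2.59 without Pippin (limma adjusted p = 0.133 in that fit). Thrombospondin 3 read 9.43 in Pippin, 6.88 in Baxter and 8.11 in Kylie, and 8.70 to 10.37 in hemangiosarcoma. Baxter and Kylie were thus under every hemangiosarcoma line. The difference was 1.30 with all arrays, 0.67 without Baxter and 1.95 without Pippin. The last of these passed the threshold with a limma adjusted p of 0.079.

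The core fibrillar collagens had closely similar means in both kinds of culture. COL1A2 averaged 14.23 ± 0.12 in hemangiosarcoma and 14.24 ± 0.07 in hematoma, COL5A2 13.90 ± 0.14 and 13.91 ± 0.12, and COL3A1 13.77 ± 0.21 and 13.71 ± 0.37. These signals lay close to the top of the values in the table. Periostin (POSTN), a matricellular protein of collagen-rich tissue, had equal means of 7.02 and 7.03 with very unequal samples, from 3.43 to 10.00 in hemangiosarcoma and at 3.33, 10.29 and 7.47 in hematoma. The hematoma cultures thus covered the whole hemangiosarcoma range.

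**Figure D2:**
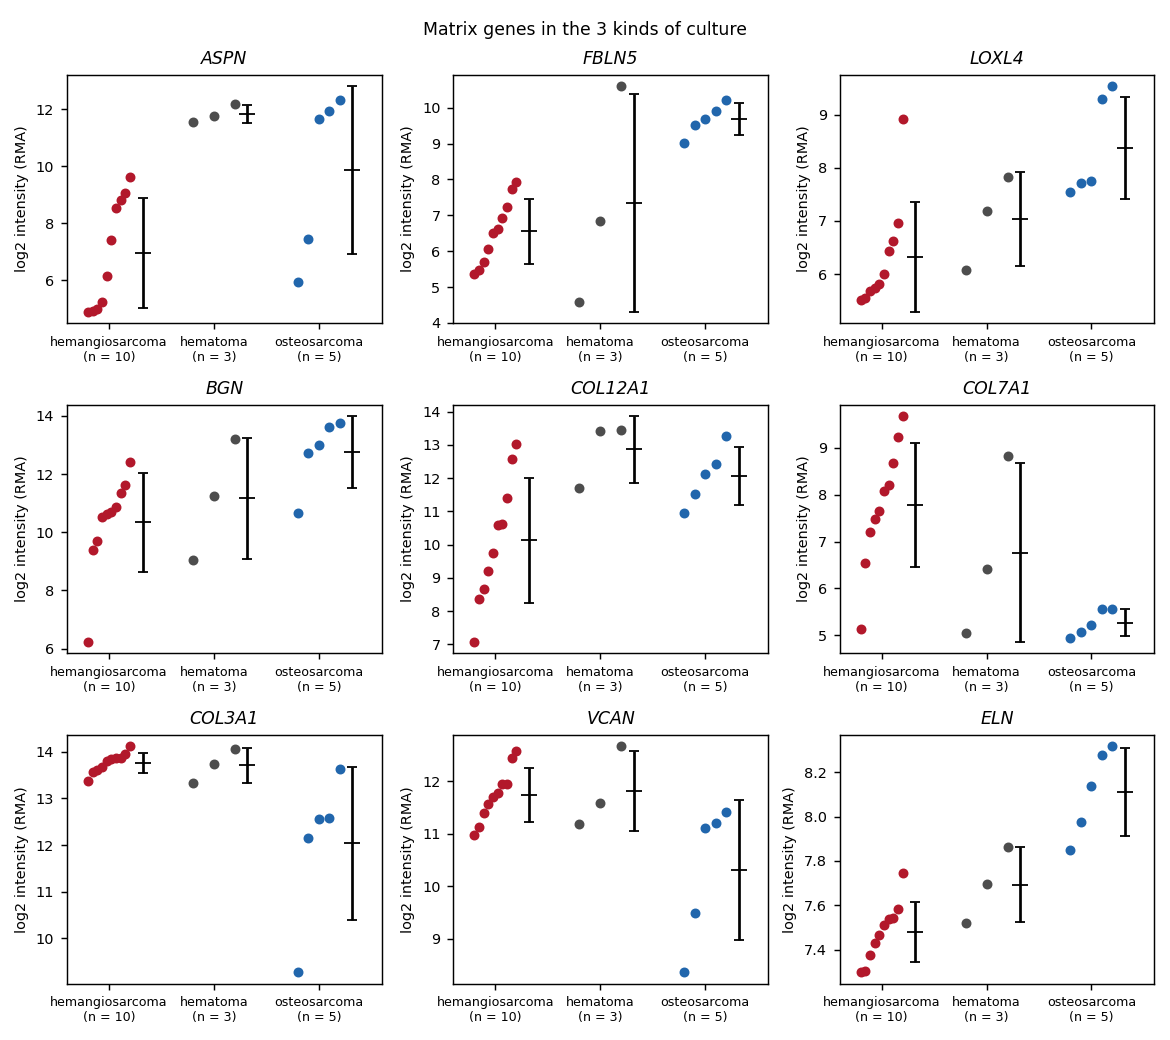
Log2 intensity (vertical axis, scaled for each gene) of 9 matrix genes in each hemangiosarcoma, hematoma and osteosarcoma culture, with a point per array, sorted by value, and the group mean with its SD beside it. ASPN was at 11.55 to 12.16 in the 3 hematoma cultures and at or under 9.62 in the 10 hemangiosarcoma lines, and FBLN5 was at 9.03 to 10.23 in osteosarcoma and at or under 7.92 in hemangiosarcoma.

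Hemangiosarcoma and osteosarcoma lines, both malignant and both cultured, differed at more of the list. At an adjusted p under 0.1 limma called 14 of 36 tested matrix genes (38.9%). Of these 5 were higher in hemangiosarcoma and 9 were lower. The background was of the same order, since 36.4% of 22857 probe sets passed, 20.6% higher and 15.8% lower. The median difference of the 39 genes was -0.16 against 0.03 over all tested probe sets, and the median absolute difference of the tested ones 0.59 against 0.35. Fibulin 5 and elastin were the 2 matrix genes without overlap between the groups, against 5.98% of all tested probe sets. The arrays differed technically too. The actin 3′ minus 5′ signal, a measure of RNA integrity in which larger is worse, had a median of 0.59 in hemangiosarcoma and 1.44 in osteosarcoma, and the spiked hybridization controls read 9.25 to 9.78 against 10.0 to 10.82. The part of either in the differences was not tested.

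Of the 5 elastic fiber genes tested, 3 were lower in hemangiosarcoma. Fibulin 5 (FBLN5), which helps elastin settle on microfibrils, read 9.68, 9.03, 9.91, 9.53 and 10.23 in OSCA20, OSCA23, OSCA59, OSCA75 and OSCA71. In hemangiosarcoma it ran from 5.35 (Frog) through a median of 6.55 to 7.92 (ChadG6). No line of either tumor entered the range of the other, and the difference was -3.12 ± 0.40 (SE), an 8.69-fold lower signal (limma adjusted p = 0.000116). Hematoma spanned both ranges, with 4.59 in Pippin, 6.83 in Baxter and 10.61 in Kylie.

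Elastin (ELN), the core of the elastic fiber, gave a small but regular difference. The osteosarcoma values were 8.14, 8.32, 8.28, 7.97 and 7.85, and hemangiosarcoma ran from 7.30 through a median of 7.49 to 7.74, for a difference of -0.63 ± 0.11 (limma adjusted p = 0.00098). The lymphoid samples, which averaged 7.39 ± 0.34, were as high on this probe set as the hemangiosarcoma lines. Fibrillin 1 (FBN1), the main microfibril protein, was lower by 0.60 ± 0.24 (limma adjusted p = 0.0674) with overlapping ranges of 11.99 to 13.40 and 12.65 to 13.89. FBLN1 (0.86) and FBLN2 (-0.18) did not pass, and FBN2 failed the filter, at 7.41 in ChadG4, 6.52 in Tucker and 3.33 to 4.01 in the other hemangiosarcoma lines.

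Of the 6 fibrillar collagens tested, COL3A1 and COL5A2 were called, both higher in hemangiosarcoma. Type III collagen (COL3A1), the fibril collagen of vessel walls and loose tissue, read 13.64, 12.15, 12.56, 12.58 and 9.27 in the osteosarcoma lines in the same order. Hemangiosarcoma was narrow, from 13.38 (ChadG4) through a median of 13.83 to 14.12 (Frog). All osteosarcoma lines but OSCA20 were lower than every hemangiosarcoma line, and the difference was 1.73 ± 0.47 (limma adjusted p = 0.0129). It was 1.04 without OSCA71, with an adjusted p of 0.00353.

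COL5A2 was higher by 0.72 ± 0.29 (limma adjusted p = 0.0756), a value that rested on OSCA71, which read 11.52 when the other osteosarcoma lines read 13 to 13.98. Without OSCA71 it was 0.31 and the call was lost (adjusted p = 0.15). COL1A1, COL1A2, COL5A1 and COL5A3 differed by -0.01, 0.04, 0.33 and 0.08, and none of them passed. COL1A1 had a group mean of 13.37 ± 1.23 in osteosarcoma with OSCA75 at 11.26 and the other lines at 13.42 to 14.44. Left without OSCA75, COL1A1 was lower in hemangiosarcoma by 0.53 (limma adjusted p = 0.056).

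Among the other collagens the directions split. Type VII collagen (COL7A1), which forms the anchoring fibrils under epithelia, read 4.94, 5.21, 5.06, 5.55 and 5.57 in osteosarcoma. In hemangiosarcoma it ran from 5.13 (Dal4) through a median of 7.87 to 9.68 (ChadP9). Every hemangiosarcoma line except Dal4 was above every osteosarcoma line, and the difference was 2.52 ± 0.56 (limma adjusted p = 0.00413). Hematoma was again mixed, at 5.05, 6.41 and 8.83. The keratins KRT8 and KRT18, of the epithelial marker list, were higher too, by 5.97 and 4.17 (limma adjusted p-values of 0.000371 and 0.0593). EPCAM and CDH1 of that list failed the filter, with means of 4.60 and 4.16 in hemangiosarcoma and 4.52 and 4.34 in osteosarcoma. ChadP9, the highest line for COL7A1, was the lowest hemangiosarcoma line for KRT8, at 3.07. The epithelial list mean was 4.72 to 8.56 in hemangiosarcoma, 6.67 to 7.97 in hematoma and 3.66 to 4.44 in osteosarcoma, and its part in the COL7A1 difference was not tested.

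COL12A1 read 12.12, 12.43, 13.26, 11.52 and 10.96 in osteosarcoma and from 7.07 (Joey) through 10.17 to 13.02 (ChadP9) in hemangiosarcoma. The groups overlapped across the upper part of the tumor lines, and the difference was -1.93 ± 0.82 (limma adjusted p = 0.0914). COL6A3 and COL8A2, the latter a short-chain collagen, were lower by 0.78 ± 0.18 and 0.41 ± 0.18, with adjusted p-values of 0.00454 and 0.0976 in limma. Both sat near the array median, at means of 5.73 and 5.59 in hemangiosarcoma. The COL8A2 difference was -0.22 without OSCA59, the highest line at 6.76, and no longer passed (adjusted p = 0.311). COL6A1, COL14A1, COL15A1 and COL16A1 did not pass, at -0.16, -0.17, 1.31 and -0.55. COL15A1 was near the threshold and passed in several alternatives. Its limma adjusted p was 0.0222 without ChadG4 and Dal4, 0.0547 with the mean of its probe sets and 0.0742 with all 34 arrays in the fit. Over the 28 alternatives its difference was 0.69 to 1.71 and its adjusted p at most 0.342.

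Of the crosslinking and processing proteins, LOXL4 alone passed. It read 7.75, 9.29, 9.54, 7.55 and 7.71 in osteosarcoma and from 5.50 (Dal4) through 5.91 to 8.92 (Joey) in hemangiosarcoma. Joey was the sole hemangiosarcoma line inside the osteosarcoma range, the next highest being 6.96, and the difference was -2.04 ± 0.51 (limma adjusted p = 0.00824). The other lysyl oxidases LOX, LOXL2 and LOXL3 differed by -0.46, -0.17 and -1.55 and did not pass. LOXL3 passed with all 34 arrays in the fit (limma adjusted p = 0.0707), and LOX without ChadG4 and Dal4 (-0.77, 0.0955). PLOD1 had the same mean in both tumors, 9.86, and SERPINH1 differed by -0.61.

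Fibronectin (FN1), the adhesive glycoprotein on which cells lay down collagen, was the single member of its group to pass. Osteosarcoma read 12.45, 12.78, 13, 12.01 and 11.88, against 12.71 (ChadP9) to 13.33 (Joey) with a median of 12.99 in hemangiosarcoma. The ranges met at the upper osteosarcoma lines, and the difference was 0.58 ± 0.18 (limma adjusted p = 0.0259). Tenascin C, THBS1, THBS2, THBS3 and POSTN differed by -0.20, 0.26, 0.57, 0.78 and -1.25, and none passed. The probe sets of THBS1 disagreed. One other read 7.38 to 12.42 in hemangiosarcoma and 5.82 to 8.54 in osteosarcoma, and the remaining one 12.10 to 14.22 and 12.57 to 14.10. With the mean of its probe sets THBS1 was higher in hemangiosarcoma by 1.35 and passed (limma adjusted p = 0.0358).

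The proteoglycans split by kind. Versican (VCAN), a large proteoglycan of loose matrix, read 11.41, 11.21, 11.10, 9.49 and 8.36 in osteosarcoma and from 10.98 through 11.74 to 12.57 in hemangiosarcoma, a difference of 1.43 ± 0.43 (limma adjusted p = 0.0226). OSCA75 and OSCA71 were the low lines, the rest overlapped the vascular tumor, and without OSCA71 the difference was 0.94 (adjusted p = 0.0568). Biglycan (BGN), a small leucine-rich proteoglycan abundant in bone, went the opposite way. It read 13.75, 13.01, 13.62, 12.74 and 10.66 in osteosarcoma and from 6.22 (ChadG4) through 10.66 to 12.43 (ChadP9) in hemangiosarcoma. All osteosarcoma lines but OSCA71 were above every hemangiosarcoma line, and the difference was -2.42 ± 0.78 (limma adjusted p = 0.0316), or -1.78 with ChadG4 and Dal4 left out together.

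Asporin read 12.31, 11.67, 11.95, 7.45 and 5.95 in osteosarcoma. OSCA20, OSCA23 and OSCA59 were at hematoma levels, OSCA75 and OSCA71 within the hemangiosarcoma range, and the difference from hemangiosarcoma was -2.90 ± 1.14 (limma adjusted p = 0.0692). DCN and LUM differed by 0.16 and -0.12 and did not pass, and FMOD failed the filter.

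Other probe sets of the same genes gave a check that did not depend on the choice by mean level, although they read the same arrays. Among the 14 called genes COL8A2 and ASPN had a single probe set. Of the other 12, 7 had another probe set called in the same direction. COL3A1, COL5A2, FBN1 and BGN had none called so, the second probe set giving 0.87 for COL5A2 (limma adjusted p = 0.158) and -1.30 for BGN (0.247), and the other COL7A1 probe set failed the filter. COL6A3 was the clearest case. Its selected probe set differed by -0.78, while 2 others differed by -5.05 and -3.22 (limma adjusted p-values of 0.00072 and 0.000132), the first from 5.33 ± 1.90 in hemangiosarcoma to 10.38 ± 1.19 in osteosarcoma. Fibronectin was higher by 2.82, 3.17 and 1.28 on its 3 other probe sets (0.00159, 0.00042 and 0.0322), against 0.58 on the selected one. FBLN5 gave -2.69 and -2.57 (0.00104 and 0.00266), and VCAN 2.69 (0.00163).

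Other genes were less uniform. FBN1 was lower by 0.60 on the selected probe set and higher by 1.46 on another that also passed (limma adjusted p = 0.0801). That probe set read 11.01 in OSCA20 and 6.25 to 7.87 in the other osteosarcoma lines, against 8.0 to 10.08 in hemangiosarcoma. The mean of the FBN1 probe sets differed by 0.08 (adjusted p = 0.911), so its direction depended on the probe set. The 4 other probe sets of COL3A1 differed by 0.47, 0.44, 0.06 and -0.12, none of them called, and the mean over its probe sets gave 0.51 (adjusted p = 0.285). COL12A1 gave -2.79 (0.0131), -0.08 and 0.93. The actin 3′ minus 5′ signal, at a median of 1.44 in osteosarcoma, moved with the same groups, and its part in these disagreements was not tested.

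**Figure D3:**
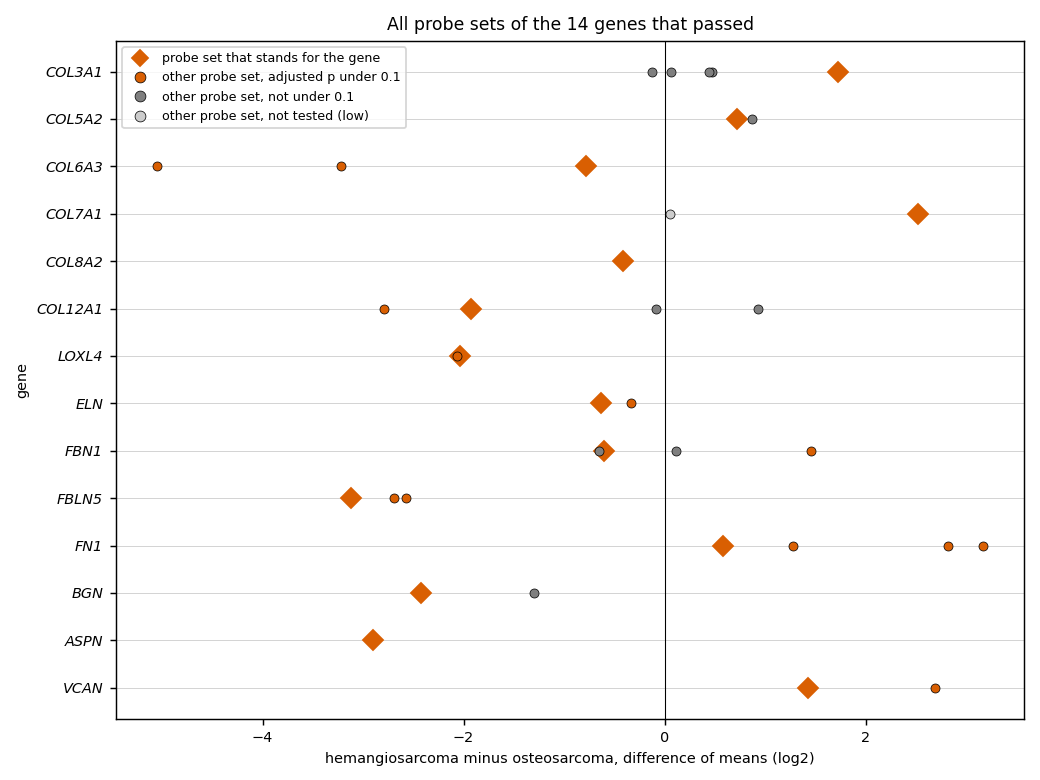
Difference in mean log2 intensity between hemangiosarcoma and osteosarcoma (horizontal axis) for every probe set of the 14 called matrix genes, with the selected probe set as a diamond and the others as circles, orange where called at an adjusted p under 0.1. COL6A3 ranged from -5.05 to the selected -0.78, and FBN1 held both a lower probe set at -0.60 and a higher one at 1.46.

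Osteosarcoma and hematoma were also set against each other, with the same arrays as above. The actin 3′ minus 5′ signal had medians of 1.44 and 0.14, the hybridization controls read 10.0 to 10.82 and 9.45 to 10.16, and their part in the differences was not tested. In limma 0 of 35 tested matrix genes passed an adjusted p of 0.1, where 13.3% of 23062 probe sets did, 5.2% higher and 8.12% lower in osteosarcoma. At an unadjusted p under 0.05 there were 2 matrix genes, FBLN1 and LOXL4, against 26.4% of all tested probe sets. FBLN1 was higher by 2.10 (limma adjusted p = 0.129) and LOXL4 by 1.33 (0.189). COL8A2 was the sole gene without overlap, at 5.68 to 6.76 in osteosarcoma and 5.42 to 5.62 in hematoma, where 20.1% of all tested probe sets had none.

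Several genes called between osteosarcoma and hemangiosarcoma differed between osteosarcoma and hematoma by a like amount without passing. COL3A1 was lower in osteosarcoma by 1.67 (limma adjusted p = 0.236) and VCAN by 1.5 (0.224). FBLN5 was higher by 2.33 (0.211), and by 3.96 without Kylie (0.0634), whose 10.61 was the highest FBLN5 value of the 18 cultures. Under a shared variance from all 18 cultures COL3A1, ELN, FBLN5 and VCAN passed, at limma adjusted p-values of 0.0563, 0.0521, 0.0756 and 0.0728. These were 4 of 35 tested matrix genes, where 6588 of all 23062 tested probe sets passed in the same fit.

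**Figure D4:**
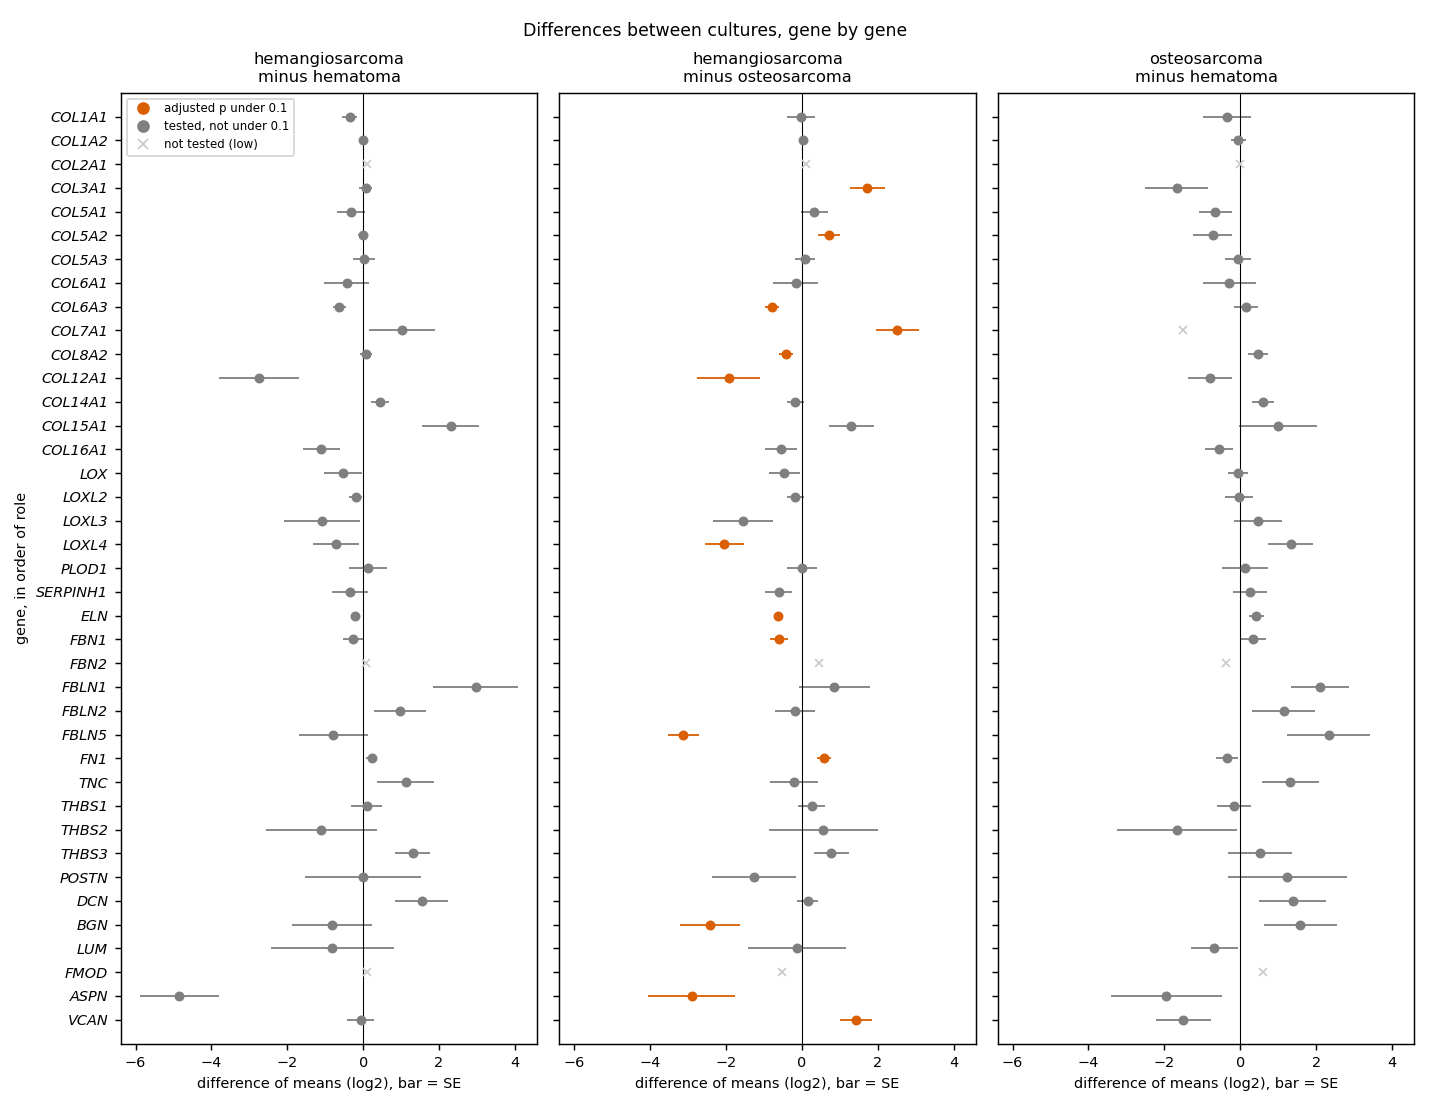
Difference in mean log2 intensity of each matrix gene (horizontal axis) for the 3 comparisons among cultures, with bars of 1 SE, orange points for limma calls at an adjusted p under 0.1, gray points for other tested genes and crosses for genes that failed the filter on low values. No gene was called in either comparison with hematoma, where ASPN in hemangiosarcoma lay at -4.85, and 14 were called between hemangiosarcoma and osteosarcoma, from FBLN5 at -3.12 to COL7A1 at 2.52.

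Matrix genes varied widely among lines of the same tumor. In hemangiosarcoma the median SD over the 39 genes was 0.75, or 0.78 for the 37 that exceeded the array median somewhere, against 0.36 over all such probe sets. An SD above 1 was found for 15 of 39 genes (38.5%), against 5.97% of probe sets. Osteosarcoma had a median SD of 0.78 against 0.44, and again 15 genes (38.5%) above 1, against 9.43%. The spread was not shared by all members, since 14 genes had an SD under 0.5 in hemangiosarcoma, COL1A2 (0.12), COL5A2 (0.14) and COL3A1 (0.21) among them.

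Some genes read near the lower end of the scale in single lines. Lumican (LUM), a keratan sulfate proteoglycan that spaces fibrils, read 4.30 in Dal4 and 12.34 to 14.15 in the other 9 hemangiosarcoma lines. A second LUM probe set gave 3.21 in Dal4 and 11.44 to 12.67 elsewhere, so both placed Dal4 apart. Thrombospondin 2 (THBS2), a matricellular inhibitor of angiogenesis, read 4.93 in ChadG4, 8.88 in Dal4 and 12.25 to 13.65 in the rest. Its other probe set gave 5.39, 9.22 and 12.30 to 13.66. The osteosarcoma line OSCA71 was low for THBS2 as well, at 5.66 against 11.23 to 13.70.

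Other line-specific readings ran through the list. Biglycan was at 6.22 in ChadG4 and 9.38 to 12.43 in the other hemangiosarcoma lines. Tenascin C (TNC), an adhesion-modulating glycoprotein of remodeling tissue, read 7.34 in Dal4 and 9.25 to 11.57 elsewhere. LOXL3 ranged from 6.11 in Dal4 to 10.84 in ChadG8. POSTN spread from 3.43 in Journey to 10.00 in ChadG4. Dal4 was the lowest hemangiosarcoma line for 11 of the 39 genes (28.2%, against 16.3% of all probe sets above the median on any array) and ChadG4 for 10 (25.6% against 15%). ChadG4 was not low throughout, having the highest LOX of the tumor at 12.21.

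In osteosarcoma OSCA71 was the lowest of the 5 lines for 29 of 39 genes (74.4%), against 28.8% of all probe sets. Its mean over the 39 genes was 8.83, and the highest, in OSCA59, was 10.68. Each role group had its osteosarcoma minimum in OSCA71, for example 8.55 for the adhesive glycoproteins against 12.14 in OSCA59. The line therefore weighed on the comparison with hemangiosarcoma, whose median difference over the 39 genes went from -0.16 to -0.48 without it. With OSCA71 and Dal4 both left out 13 genes passed, 12 of them among the 14.

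**Figure D5:**
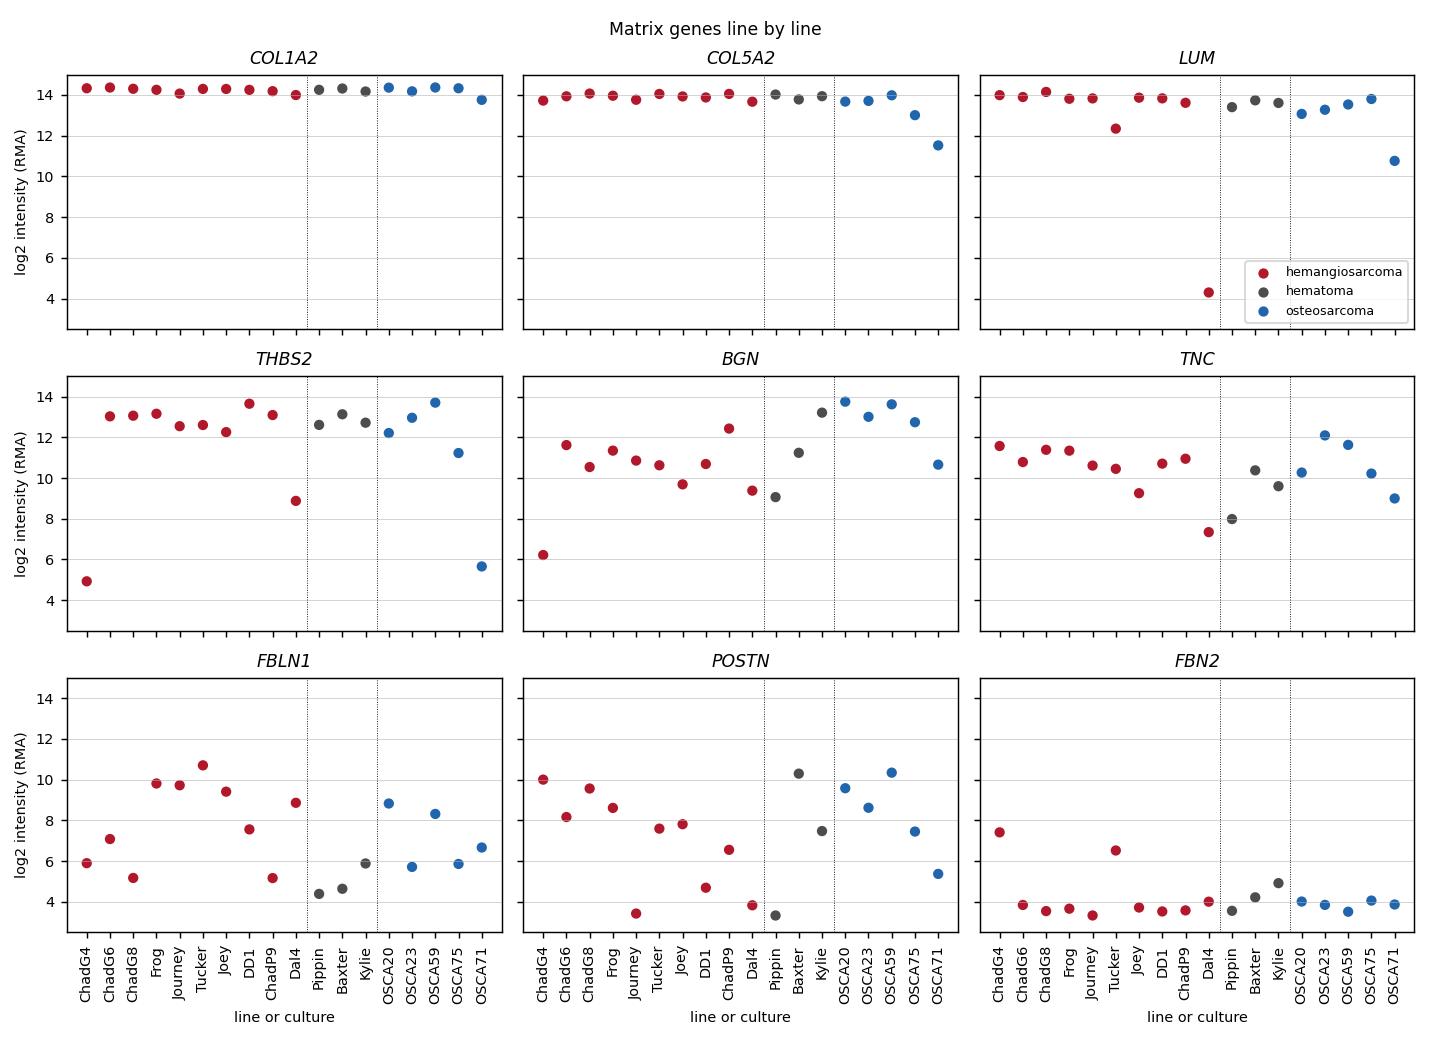
Log2 intensity (vertical axis) of 9 matrix genes in each of the 18 cultures (horizontal axis), 1 point per array, colored by tumor label. COL1A2 stayed at 13.76 to 14.36, while LUM was at 4.30 in Dal4, THBS2 at 4.93 in ChadG4 and 5.66 in OSCA71, and POSTN spread from 3.33 to 10.34.

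Pairs of genes whose proteins work together were compared from line to line. Over the 10 hemangiosarcoma lines 8 pairs were examined with permutation tests, and none passed after adjustment over the 8. The highest correlation was between COL3A1 and COL5A2, which are neighbors on the chromosome with 0 protein-coding genes between them (Pearson r = 0.67, permutation p = 0.034, adjusted p = 0.272; Spearman rho = 0.71, permutation p = 0.0271, adjusted p = 0.197). It was 0.66 without ChadG4 and Frog. DCN and LUM, also neighbors, gave r = 0.48 (permutation p = 0.12, adjusted p = 0.481) and rho = 0.65 (0.0494, adjusted 0.197), and r fell to 0.11 without ChadP9 and Dal4, so the relation rested on those lines.

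The 2 chains of type I collagen, COL1A1 and COL1A2, gave r = 0.19 (permutation p = 0.592) and rho = 0.59 (0.0806), and r = 0.47 without Journey and Joey. Their range over these lines was narrow, with SDs of 0.27 and 0.12. COL5A1 with COL5A2 gave r = 0.16 and COL6A1 with COL6A3 r = 0.34. COL1A2 with COL3A1 gave r = 0.22, and -0.28 without Journey and Dal4. FBN1 with FBLN5 gave r = 0.43 and 0.88 without Journey and DD1, and COL1A1 with its chaperone SERPINH1 gave r = -0.21. The adjusted permutation p-values of these Pearson correlations were 0.589 to 0.654.

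In the lymphoid samples the matrix genes were low but not uniformly so. The mean over the 39 genes was 5.10 to 5.48 in diffuse large B cell lymphomas other than Snuggles, and 6.98 in Snuggles. Snuggles was the highest of the 6 for 23 of 39 genes (59.0%), against 13.2% of all probe sets. It read 10.37 for COL1A1, 11.65 for COL1A2, 9.91 for COL3A1 and 8.92 for COL5A2, and 10.77 for DCN, 10.51 for LUM and 10.68 for FN1. The next highest lymphoma of that type read 5.75 for COL1A1 and 6.42 for COL1A2. The mural and fibroblast marker list averaged 5.57 to 6.04 over the 6 and was highest in Snuggles. Snuggles was also the highest of them for PDGFRA (5.54), PDPN (5.91) and THY1 (8.09). The other markers of that list were highest in other lymphomas of that type. PDGFRB read 5.43 in Snuggles and 6.1 in Chieftain, and ACTA2 read 5.90 in Snuggles and 6.01 in Sally. CNN1 was lowest in Snuggles (4.83). A part of stromal cells in this sample was not tested.

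T-zone lymphomas spanned 5.25 to 5.80, and Shilo was the highest of the 6 for 15 genes (38.5%, against 11.2% of all probe sets), with 9.62 for COL1A2 and 7.73 for COL1A1. Shilo was also the highest of them for the mural and fibroblast list (6.79, against 5.88 to 6.60), ACTA2 (8.29, against 4.85 to 6.80) and TAGLN (8.45, against 6.98 to 8.05). Other markers of that list differed, since PDPN was lowest in Shilo (4.04) and PDGFRB (6.19) was under Fire (6.42). THY1 and S100A4 were highest in Shilo (10.61 and 13.34) but averaged 9.44 and 12.43 over the T-zone lymphomas. The part of mural cells and fibroblasts was not tested. Among the adhesive glycoproteins, fibronectin and thrombospondin 1 had high values in the 3 leukemias. Fibronectin read 9.98, 9.25 and 10.43 in Rascal, Maddle and Forrest, and no lymphoma except Snuggles exceeded 6.53. Thrombospondin 1 (THBS1), an adhesive glycoprotein also stored in platelets, read 8.51, 10.54 and 12.28 in the same samples and at most 7.92 in the lymphomas. Other probe sets of these genes disagreed. A further THBS1 probe set read 8.09, 10.66 and 12.43 in the leukemias, against at most 7.985 in the lymphomas. Another read within the lymphoma range, at 5.45 to 5.92. For FN1 a further probe set read 7.03, 5.77 and 6.61, above every lymphoma except Snuggles (7.79). Another read within the lymphoma range, at 4.62 to 5.01. The last FN1 probe set read 5.82 to 6.63, against up to 6.60 in the lymphomas. TNC (3.98 to 4.30), THBS2 (4.06 to 4.61) and POSTN (3.09 to 3.58) were low in the leukemias, and COL1A2 was at 3.14 to 3.86. The difference between leukemias and lymphomas was not tested.

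Between diffuse large B cell and T-zone lymphoma 17 of the 39 genes passed the filter, and 3 (17.6%) passed an adjusted p of 0.1 in limma, 1 higher and 2 lower in the B cell tumor. Over 21763 probe sets 25.1% passed, 12.8% higher and 12.2% lower. PLOD1, the lysyl hydroxylase, ran from 5.48 through 5.73 to 6.48 in diffuse large B cell lymphoma and from 7.34 through 7.44 to 8.67 in T-zone lymphoma. The groups did not overlap, which held for 7.76% of all tested probe sets, and the difference was -1.77 ± 0.26 (limma adjusted p = 0.000501). A second PLOD1 probe set gave -0.86 (0.0392).

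Fibrillin 1 was higher in diffuse large B cell lymphoma. It ran from 5.87 (Kaycee) through 9.05 to 10.80 (Chieftain), against 4.90 to 6.83 with a median of 5.74 in T-zone lymphoma. Kaycee alone fell into the T-zone range, the marginal zone lymphoma Bitsy read 8.59, and the difference was 3.16 ± 0.64 (limma adjusted p = 0.00435). It was 2.96 without Snuggles (0.0119). FBLN5 was lower, by 1.38 ± 0.55 (0.0985), and this call was lost without Snuggles (0.163) and in several other settings.

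Genes around the list were read by the same tests. Of the collagen maturation genes, which hydroxylate, fold, glycosylate or trim procollagen, 20 of 22 tested were higher in cultures than in lymphoid samples and 0 lower (22% and 21.4% of all tested probe sets), with SPARC at 6.86 and P4HA2 at 6.16. Against hematoma, 1 of 25 passed (0.266% of all tested probe sets). It was ADAMTS2, the procollagen N-proteinase, which averaged 5.51 ± 0.48 in hemangiosarcoma and 7.64 ± 0.41 in hematoma without overlap, a difference of -2.13 ± 0.29 (limma adjusted p = 0.0105). Against osteosarcoma 3 of 23 were higher (FKBP14, COLGALT1 and P4HA2, by 1.38, 1.33 and 0.78) and 3 lower (P4HA3, PCOLCE and PLOD3, by 0.78, 0.62 and 0.55), where 20.6% and 15.8% of all tested probe sets were. Osteosarcoma against hematoma gave 2 higher (PCOLCE, 1.52, and PLOD3, 1.09) and 1 lower (COLGALT1, -1.18) of 23, where 5.2% and 8.12% of all were.

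Matrix glycoproteins outside the 45 were also compared. Against osteosarcoma, 14 of 22 tested were lower and 1 (LTBP2, 2.80) higher in hemangiosarcoma, beside 15.8% and 20.6% of all tested probe sets, with a median over the 35 on the array of -0.43. HAPLN1, a link protein that ties proteoglycans to hyaluronan, averaged 4.28 ± 0.37 in hemangiosarcoma and 9.73 ± 0.72 in osteosarcoma, a difference of -5.45 (limma adjusted p = 5.12e-09). Dermatopontin (DPT), EFEMP1 and osteomodulin (OMD) were lower by 4.92, 4.07 and 4.02. Against hematoma 0 of 19 passed in limma (0.266% of all tested probe sets). Osteosarcoma exceeded hematoma at 6 of 23 (5.2% of all tested probe sets), with HAPLN1 at 5.16 and FNDC1 at 4.89, and was lower at LTBP2 (-2.56).

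Of 6 tested collagen receptors, 1 was called against hematoma and 2 against osteosarcoma, where 0.266% and 36.4% of all tested probe sets were. Integrin subunit ITGA2 was higher in hemangiosarcoma than in hematoma (2.13, limma adjusted p = 0.0978) and than in osteosarcoma (2.59, 0.000127). ITGB1, its partner, was higher than in osteosarcoma by 1.40 (0.0019). In osteosarcoma against hematoma, ITGB1 was lower by 1.80 (0.0501), where 8.12% of all tested probe sets were lower. Collagens outside the list gave 0 calls of 9, 7 and 6 tested in the 3 comparisons among cultures, where 0.266%, 36.4% and 13.3% of all tested probe sets passed. Of mural and fibroblast markers 1 of 13 tested was called against hematoma and 2 of 11 against osteosarcoma, beside 0.266% and 36.4% of all tested probe sets. PDGFRB was lower in hemangiosarcoma than in hematoma (-2.44, limma adjusted p = 0.0734) and than in osteosarcoma (-2.46, 0.00281), where THY1 was lower as well (-2.80, 0.000161), and their part in the matrix differences was not tested. PDGFRA, PDPN and S100A4 had higher means in hemangiosarcoma than in hematoma, by 1.11, 2.92 and 1.27, without passing. Of endothelial markers 0 of 5 tested passed against hematoma (0.266% of all tested probe sets). In the comparison with osteosarcoma 1 of 4, EGFL7, was lower, by 0.46 (15.8% of all tested probe sets were lower). Of 2 osteoblast markers tested, DLX5 was lower in hemangiosarcoma than in osteosarcoma, by 2.88 (15.8% of all tested probe sets were lower). SPP1 did not pass and had the higher mean in hemangiosarcoma, 5.56 against 4.24. The median difference over the 9 osteoblast genes on the array was -0.55.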

How the data were processed

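RNA of 34 canine samples was hybridized to Affymetrix Canine_2 arrays. The authors deposited log2 intensities after RMA normalization with the affy package (versions not given in the sources used here). The study ran 1 sample on 2 arrays, and which is not stated. Of 43035 probe sets, 175 controls were left out. Members and gene lists were chosen with earlier results of these data known. Every measured member is named, and values are given for members called and for the largest and smallest differences. Groups came from the tumor type labels.

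Each comparison was a 2-group limma fit (limma 3.58.1, R 4.3.3) over probe sets whose value exceeded the array median on n or more arrays, n being the size of the smaller group, with Benjamini-Hochberg adjustment over all of them and calls at an adjusted p under 0.1, or 0.001 for cultures against lymphoid samples. The p-values set a group difference against the spread between these arrays, and the number of arrays limits precision. According to the paper the dogs Frog and Journey were related. Correlations used 100000 permutations in scipy 1.17.1. Scripts were tested on simulated data. Alternatives changed the filter, normalization, variance model, array weights, samples, threshold and probe set rule.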

Additional observations from a re-analysis of the deposited data

Results flagged for a closer look

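In groups of 5 to 10 arrays, 32 of 156 gene and group combinations held a sample whose gap to its nearest neighbor exceeded Dixon's 95% limit, and chance alone gives about 1 in 20. In hemangiosarcoma 9 such values occurred. LUM in Dal4 (4.30), COL15A1 in Dal4 (8.70), BGN in ChadG4 (6.22), COL16A1 in ChadG4 (7.27) and THBS1 in Joey (12.4) lay under the other lines. LOXL4 in Joey (8.92), COL8A2 in Journey (6.17), COL14A1 in ChadG6 (7.67) and FMOD in ChadG8 (4.94) lay over them. In osteosarcoma LUM in OSCA71 (10.76) was low and COL8A2 in OSCA59 (6.76) was high.

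Diffuse large B cell lymphoma held 14, of which 12 were high values of Snuggles: COL1A1 10.37, COL1A2 11.65, COL5A1 7.32, COL5A2 8.92, COL12A1 7.16, LOXL2 8.14, FN1 10.68, TNC 5.36, POSTN 6.01, DCN 10.77, LUM 10.51 and ASPN 6.85. The others were a high COL6A3 in Benson (6.78) and a low BGN in Kaycee (5.50). T-zone lymphoma held 7, all high. Shilo gave COL5A2 6.41, COL12A1 5.45 and PLOD1 8.67, Fire gave COL5A3 6.25, COL8A2 6.32 and ELN 7.81, and Rose gave THBS2 7.07.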

How the results depend on the processing

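The 56 single-gene results gave 963 values under the alternatives, of which 881 kept their direction and side of the threshold. Of 28 alternatives of hemangiosarcoma against osteosarcoma, COL6A3, COL7A1, LOXL4, ELN, FBLN5, BGN and VCAN passed in all. FBN1 reversed, to 0.08 (limma adjusted p = 0.911), with the mean of its probe sets. Against hematoma 1 matrix gene passed with all 34 arrays in the fit, and 0 to 1 when each array was left out (ASPN without Tucker, THBS3 without Pippin). The 62 probe sets called there became 33 with array weights, 181 with all 34 arrays, 38 at an adjusted p under 0.05, and 7 (without Baxter) to 200 (without Pippin) with arrays left out. Against osteosarcoma, 9 matrix genes passed at 0.05, 5123 probe sets passed with gene means, and leaving out arrays gave 10 to 14 matrix genes and a median difference of -0.48 (without OSCA71) to 0.05. For osteosarcoma against hematoma, 5 matrix genes passed with array weights, 3 with all 34 arrays, 4 with 18 cultures in the fit, and 0 to 1 with arrays left out (COL7A1 without Pippin, FBLN5 without Kylie). The 3073 probe sets called became 6494, 5217, 1724 (gene means), 1096 (threshold of 0.05), 6588 (18 cultures) and 219 (without Kylie) to 4700 (without OSCA20). With gene means the median of cultures against lymphoid samples was 3.99, and 1 gene passed between the lymphomas. Centered on group means, 18 cultures gave correlations that passed for COL5A1 and COL5A2 (0.62), COL6A1 and COL6A3 (0.61), COL3A1 and COL5A2 (0.87) and COL1A2 and COL3A1 (0.77). Without OSCA71, an alternative chosen after seeing the data, these were 0.32, 0.51, 0.26 and 0.24, and none passed. The cause of these shifts was not tested. No paired analysis was possible because the labels tie no array of a group to an array of another group. Signals near the top of the scale or under the array median limit what COL1A2, COL5A2, COL2A1 and FMOD can show.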
